A study of Mus musculus with 8 samples.

Results

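The potassium, calcium and sodium channel genes on the array are described here across 8 samples of embryonic mouse small intestine. Members were all genes whose name in the array files begins with Kcn, Cacn or Scn and continues as a subunit name of these families. One such gene was left out of the set by the same rule. The set holds 130 of the 36161 gene names on the array, with 91 potassium, 26 calcium and 13 sodium channel genes. Each gene is represented by 1 probe, the one with the highest mean signal over all 8 arrays. A probe entered the test when at least 4 arrays, whatever their group, had it well above background, and 90 of the 130 members (69.2%) passed that filter, against 70.1% of all genes.

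The RNA came from whole small intestine at stage E18.5, shortly before birth, from 4 control embryos and 4 embryos labelled mutant. The mutants were Rfx6 fl/fl with Ngn3-cre, in which both alleles of the transcription factor gene Rfx6 are floxed and Cre is driven by Ngn3, a gene of endocrine progenitors. Control replicates 1, 3 and 4 were Rfx6 fl/+ and control replicate 2 was Rfx6 fl/fl. Every embryo therefore carried at least 1 floxed allele. The labels name Cre in no control, so Cre and the deletion cannot be told apart, and the floxed exons are not given in the labels. The comparison asks which channel genes differ when Rfx6 is removed from the intestinal endocrine lineage. Endocrine cells are a minority of the gut wall, and in such bulk RNA fewer cells of a type and less RNA per cell cannot be told apart.

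Voltage-gated channels open a pore in the cell membrane when the membrane potential changes. Sodium channels (Scn) carry the upstroke of the action potential, calcium channels (Cacn) admit the calcium that triggers contraction and secretion, and potassium channels (Kcn) return or hold the membrane near rest. In the intestine these genes serve smooth muscle, the pacemaker interstitial cells of Cajal, enteric neurons, ion transport across the epithelium and the electrical activity that releases hormone from endocrine cells.

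The probes that the results below turn on are shown first, because what the array measures is hybridisation to these stretches. Each line gives the first 30 of the probe's 60 bases, 5′ to 3′ as deposited, in lower case with no part marked. Kcna4 is shown because it was the member whose groups did not overlap. Both tested probes are shown for Cacna2d1, Scn3a and Kcnj13, since both stood low on the same array.
Kcna4: caaaatgctagatttaagtcccttttgtgt
Cacna1s: cacaaaggcctgatcggtgccagggtctgt
Cacna2d1, brighter probe: ccttattatgttctctggacacttttgtgg
Cacna2d1, other probe: agttacattaaataggagtcggttgaagaa
Scn3a, brighter probe: gtaacaccctgctacactatctactgagaa
Scn3a, other probe: tccactttctggatggtgttagcttacaag
Kcnj13, brighter probe: tgtatctcatgtttccttgttctcagtgct
Kcnj13, other probe: catatcaatggacaaagcattgacaatttc

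On genome build mm9 the Kcna4 probe lies at chr2:107138207-107138266 on the plus strand and the Cacna1s probe at chr1:138016020-138016079 on the plus strand. The Cacna2d1 probes lie at chr5:15880152-15880211 and chr5:15876550-15876609 on the plus strand. The Scn3a probes lie at chr2:65296320-65296379 and chr2:65297940-65297999 on the minus strand. The Kcnj13 probes lie at chr1:89282859-89282918 and chr1:89282991-89283050 on the minus strand. The exon or untranslated region under each probe was not analysed here.

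All levels below are log2 of the processed intensity minus log2 of the array's 75th percentile, so 0 is the 75th percentile of that array. Levels of single genes are compared between arrays for 1 probe and not between probes. Summed marker levels are log2 of the added unlogged levels of several probes, so the brightest probes weigh most in them. The 75th percentile was 788 to 1027 intensity units, 59.7% to 69.9% of probes were well above background, and no non-control spot was saturated. Correlations between arrays across genes were 0.975 to 0.995, and mutant replicate 1 had the widest deviations from its group (SD 0.67 over tested genes, with 0.29 to 0.39 on the remaining 7). The tissue label was checked with markers, and the 6 enterocyte, 6 smooth muscle and 7 enteric neuron markers were above background on all 8 arrays. For Rfx6 itself the groups overlapped. Its probe read -3.32, -3.20, -3.48 and -2.93 in control replicates 1 to 4 and -5.52, -3.37, -3.02 and -3.02 in mutant replicates 1 to 4 (limma adjusted p = 0.824), so it does not check the labels. Of 6 endocrine marker genes, 5 were tested, 3 with lower and 2 with higher mutant means. Isl1 alone passed a limma adjusted p of 0.05 (log2 difference -2.52, SE 0.17, limma adjusted p = 8.34e-04). It fell from between -3.85 and -4.29 in controls to between -6.30 and -6.99 in mutants. No mutant array had Isl1 well above background. Chga and Insm1 differed by -0.27 and -0.09. The untested Pax6 was well above background on 2 control arrays and on no mutant array. The summed level of the 5 tested endocrine markers was 5.37 to 5.62 in controls and 5.30 to 5.48 in mutants. This sum was set mostly by Chgb and Chga (control means 4.96 and 3.56). It could not show the difference of Isl1 (control mean -4.05). Summed pancreas markers stood at -0.43 to 0.97 in controls and 1.33 to 3.72 in mutants. All 4 tested genes of the list had an unadjusted limma p under 0.05, beside 5.33% of all genes. The part of these pancreas markers in the results below was not tested.

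Which channel genes the fetal intestine held could be read from the number of arrays on which each probe was well above background. Of the 130 members, 77 were above background on all 8 arrays, beside 22903 of the 36161 gene names on the array. Of the other members 24 were above background on none and the rest on some, and the count on none over all genes is not given here. Pore-forming subunits made up 53 of the 77 and auxiliary subunits 21. Within most classes, genes well above background on every array stood beside close relatives above background on none. The plot of detection by subunit class gives these counts.

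**Figure D1:**
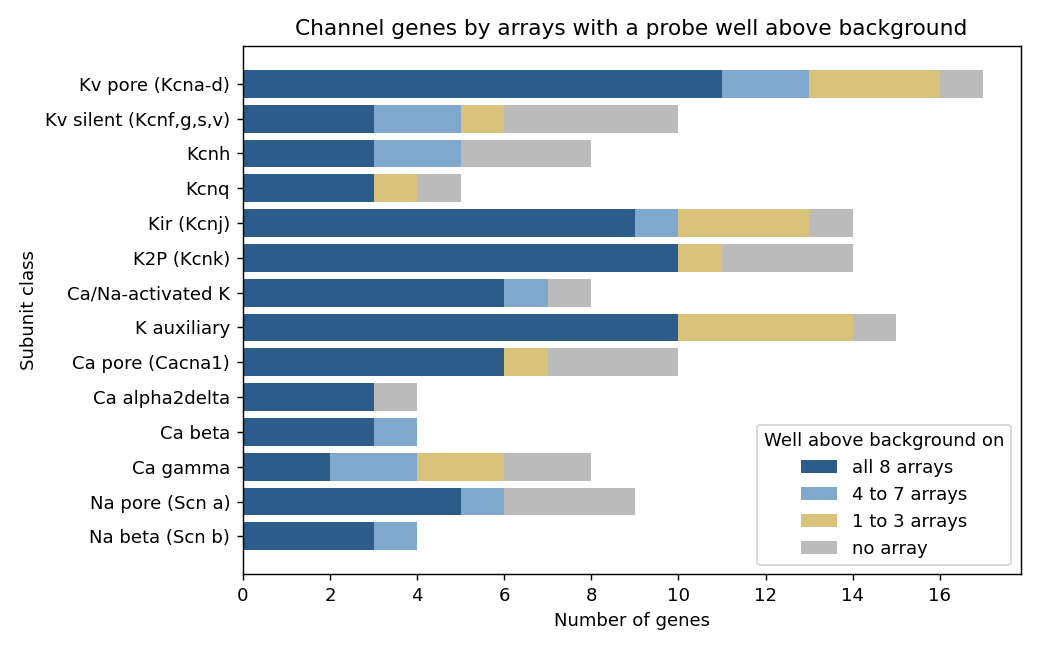
Number of channel genes in each of 14 subunit classes (horizontal bars), coloured by the number of arrays on which the gene's probe was well above background. Of 17 Kv pore genes 11 were above background on all 8 arrays, while 4 of 10 silent Kv genes and 3 of 10 calcium pore genes were above background on none.

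Among the 17 Kv pore genes, which encode the delayed rectifier and A-type channels, 11 were above background on all 8 arrays. These included Kcna4 and Kcnd3, which carry fast-inactivating A-type current, and Kcnc4, a fast-gating Kv3 subunit. Kcna2, an axonal Kv1 subunit, was above background on no array. The silent subunits, which form no channel of their own and modify other Kv channels, were less complete, with 3 of 10 on all arrays and 4 on none. Of the 8 Kcnh genes, 3 were on all arrays and 3 on none. Of the 5 Kcnq genes 3, Kcnq1 among them, were on all 8 arrays, and Kcnq3, a neuronal subunit, was on none.

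Inward rectifiers (Kcnj), which hold the resting potential, were above background on all arrays for 9 of 14 genes. Among them were Kcnj8, a pore subunit of the ATP-sensitive channel of smooth muscle, and the epithelial genes Kcnj13, Kcnj15 and Kcnj16. Of the 14 two-pore-domain (K2P, Kcnk) genes, which carry background leak current, 10 were on all arrays and 3 on none. Calcium- and sodium-activated potassium channel genes were on all arrays for 6 of 8, among them Kcnma1, the large-conductance BK channel, and Kcnn4, an intermediate-conductance channel of epithelia. Auxiliary potassium subunits were on all arrays for 10 of 15, with Kcne2 on none.

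Among the 10 calcium channel pore genes, 6 were above background on all 8 arrays. These were the P/Q-type Cacna1a, the L-type Cacna1d and Cacna1s and all T-type genes, Cacna1g, Cacna1h and Cacna1i. The N-type Cacna1b and the R-type Cacna1e were above background on none. The probe for Cacna1c, the L-type channel of smooth and cardiac muscle, was above background on 1 control array only, while the smooth muscle markers were above background on all 8 arrays. Its levels were -5.66, -5.68, -6.76 and -7.35 in controls and -5.44, -6.20, -6.96 and -6.77 in mutants, which this probe cannot tell from background. Of the 9 sodium channel pore genes, 5 were on all arrays, among them Scn3a, Scn4a, Scn8a and Scn11a, and 3 on none (Scn7a, Scn9a and Scn10a, of which Scn9a and Scn10a are known from sensory neurons).

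Some channel genes lie close to one another. With a gap of at most 500000 bases between neighbouring probes on mm9, 45 of the 130 members fell into 19 clusters, not all of them of related genes. Detection was alike in some, as for Kcnk5 and Kcnk16, both above background on 8 arrays, and differed in others. On chromosome 6, between 126483373 and 126686761, Kcna5 and Kcna6 were above background on 8 arrays and Kcna1 on 1. On chromosome 3, between 106840925 and 107241623, Kcnc4 was above background on 8 arrays, while Kcna3, Kcna2 and Kcna10 were above background on 3, 0 and 1. On chromosome 2, between 66173498 and 66514172, Scn1a was above background on 7 arrays and Scn9a and Scn7a on 0. These clusters were chosen after their values were seen.

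No channel gene passed the test between mutants and controls. Of 25354 genes tested, 15 (0.0592%) passed a limma adjusted p of 0.05, 14 lower (0.0552%) and 1 higher (0.00394%) in mutants, and of the 90 tested channel genes 0 passed. The smallest adjusted p among them was 0.792, for Cacna1s. At an unadjusted limma p under 0.05 there were 5 channel genes (5.56%), beside 5.33% of all genes. These were Cacna1s, Kcnb2 and Cacna1g, lower (2.15% of all genes were lower at this threshold), and Kcna4 and Kcnk13, higher (3.18% of all genes). The groups did not overlap for 1 channel gene (1.11%), Kcna4, higher in mutants, beside 4.67% of all genes (1.62% lower and 3.04% higher). The share at the unadjusted threshold was thus near that of the array as a whole, and no tested channel gene differed by more than 2-fold in group means, against 178 of all genes (0.702%).

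These small counts moved with single arrays, as did the shares over all genes. At an unadjusted p under 0.05 there were 2, 1 and 3 channel genes without control replicates 1, 2 and 4 (3.94%, 4.08% and 3.94% of all genes). Without control replicate 3 there were 6 (6.67%), beside 4.37% of all genes. Without mutant replicates 1, 2 and 3 there were 6, 4 and 5 (6.64%, 5.04% and 5.88% of all genes). Without mutant replicate 4 there were 10 (11.1%), beside 7.32% of all genes. Non-overlapping genes numbered 2, 2, 6 and 4 without control replicates 1 to 4 in turn, beside 6.80%, 6.95%, 8.29% and 6.81% of all genes. They numbered 3, 2, 3 and 9 without mutant replicates 1 to 4, beside 8.00%, 7.59%, 8.80% and 10.5% of all genes. In each of these fits the share of non-overlapping channel genes was below that of all genes. The count past the adjusted threshold was 0 in each of these fits.

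How large a difference these arrays could have missed is given by the confidence intervals. The 95% interval lay within 2-fold in either direction for 79 of the 90 genes and within 1.5-fold for 48. For the other 11 genes, namely Kcnc2, Kcng4, Kcnh1, Kcnh6, Kcnj13, Kcnj15, Kcnt2, Cacna2d1, Cacnb4, Cacng1 and Scn1a, a 2-fold difference lies inside the interval. Mutant means were higher for 53 channel genes and lower for 37, and 58.9% higher stands beside 57.1% of all genes. The median difference was 0.025, against 0.030 over all genes, and the median size of the difference was 0.14, against 0.12.

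**Figure D2:**
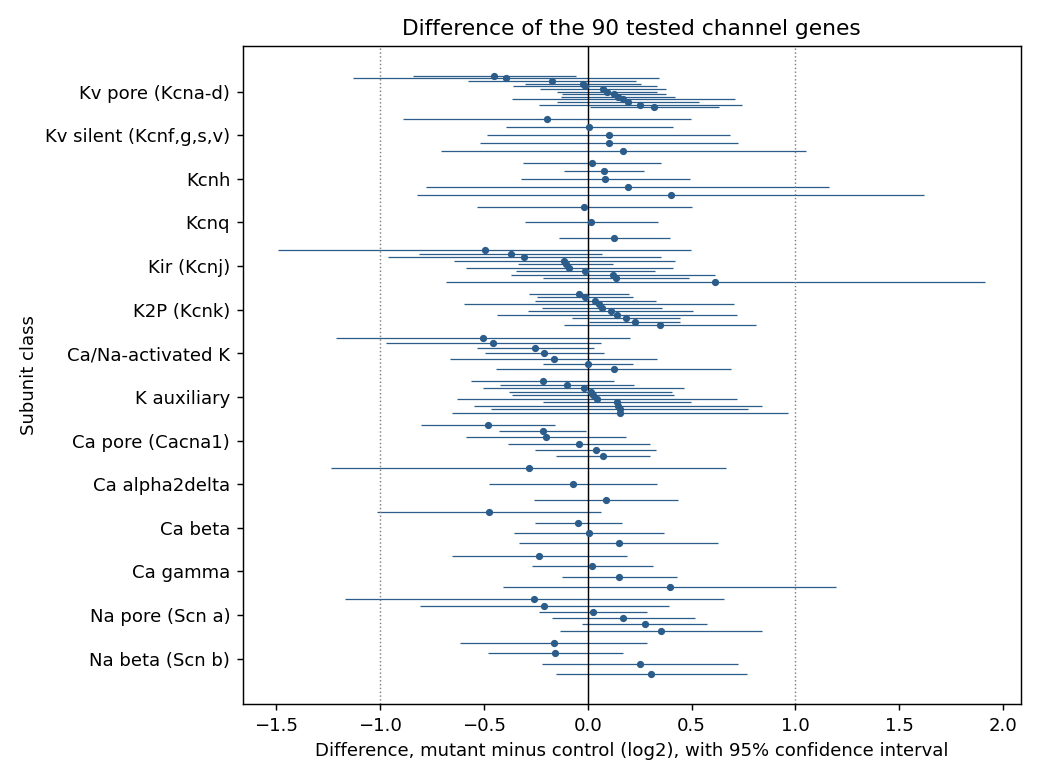
Difference in log2 level, mutant minus control, for the 90 tested channel genes (points) with 95% confidence intervals (lines), by subunit class; dotted lines mark 2-fold. Points run from -0.50 (Kcnt2) to 0.61 (Kcnj15), and 79 intervals lie wholly within 2-fold.

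The levels behind the 5 genes were as follows, starting with the calcium channels. Cacna1s, the L-type channel known from skeletal muscle, read -3.44, -3.45, -3.27 and -3.72 in control replicates 1 to 4 and -3.66, -3.89, -4.14 and -4.11 in mutant replicates 1 to 4. Control replicate 4 lay below mutant replicate 1, so the groups overlapped. The difference was -0.48 (SE 0.14, limma adjusted p = 0.792). A second Cacna1s probe, above background on 2 control and 2 mutant arrays, differed by -0.09. Among skeletal and cardiac muscle markers all 4 genes had higher mutant means, with Myh3 at 0.50 and Myh6 at 0.98 (limma adjusted p = 0.821 each).

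Cacna1g, a T-type channel known from pacemaking cells, read -0.08, -0.21, -0.33 and -0.10 in controls and -0.45, -0.37, -0.46 and -0.31 in mutants. Control replicate 3 lay just below mutant replicate 4. The difference was -0.22 (SE 0.09, limma adjusted p = 0.821), and the second Cacna1g probe differed by -0.06. Neither calcium channel difference was therefore repeated in size by the gene's other probe.

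Among potassium channels, Kcna4 read 2.43, 2.48, 2.51 and 2.43 in controls and 3.18, 2.71, 2.68 and 2.56 in mutants. Every mutant array lay above every control, and mutant replicate 1 lay highest. The difference was 0.32 (SE 0.14, limma adjusted p = 0.821), and 0.19 without mutant replicate 1. Kcnk13, a K2P channel, read -1.99, -2.08, -2.14 and -1.93 in controls and -1.65, -1.84, -1.81 and -1.93 in mutants, with control and mutant replicates 4 level with each other. Its difference was 0.23 (SE 0.10, limma adjusted p = 0.821). Kcnb2, a delayed rectifier, read -4.29, -4.45, -4.76 and -4.37 in controls and -5.38, -4.83, -4.75 and -4.70 in mutants. Control replicate 3 was level with mutant replicate 3, so the groups overlapped. The difference was -0.45 (SE 0.17, limma adjusted p = 0.821), and on mutant replicate 1 its probe was not well above background. Cacna1g and Kcnk13 are named because the count was small, after their values were seen.

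**Figure D3:**
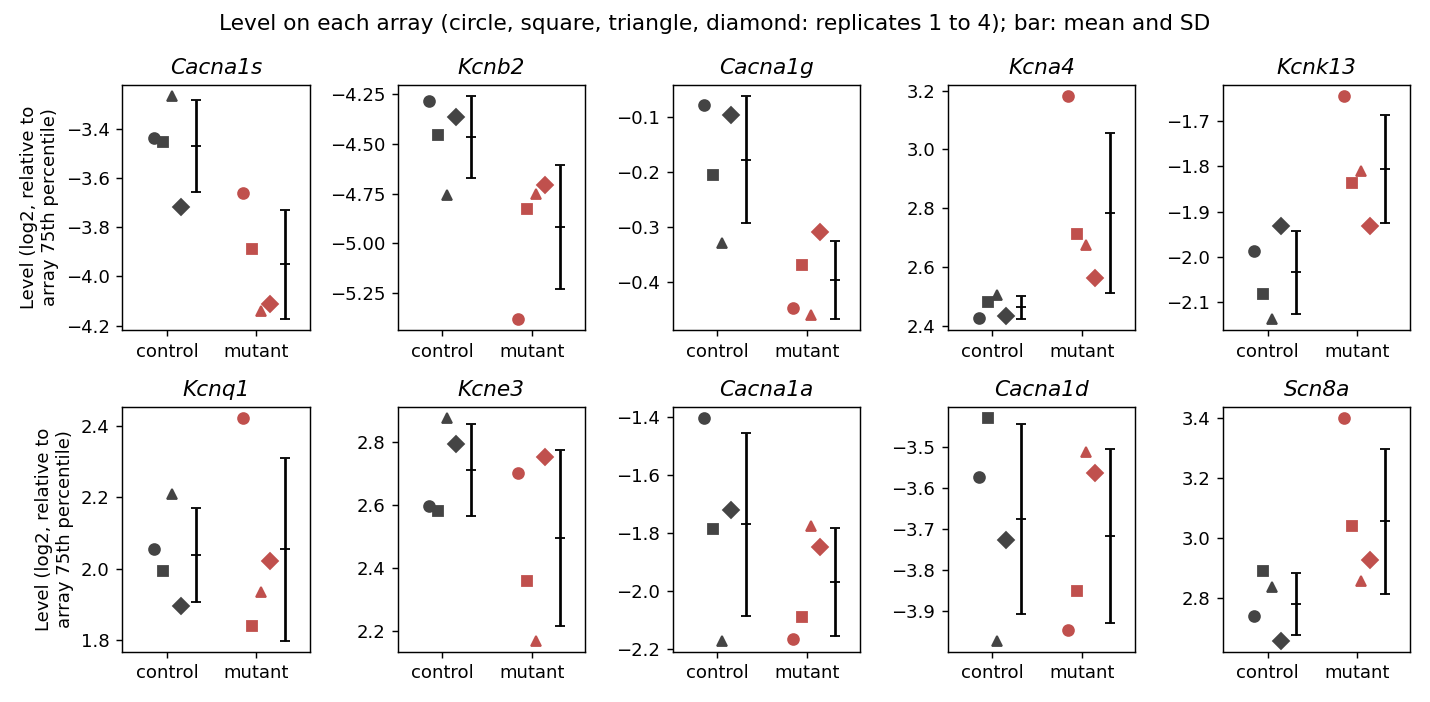
Level of 10 channel genes on each array, in log2 units relative to the array's 75th percentile, with a separate vertical scale per gene; symbols mark replicates 1 to 4 and bars the mean and SD of 4 arrays per group. Only for Kcna4 do all 4 mutant arrays (2.56 to 3.18) lie above all 4 controls (2.43 to 2.51).

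By subunit class, the median differences lay between -0.21 and 0.10, and 0 genes of any class passed the adjusted test. In the Kv pore class 8 of 13 tested genes had higher mutant means (median 0.09), in the silent class 4 of 5 (0.10), in the Kcnh class 5 of 5 (0.08) and in the K2P class 8 of 10 (0.09). Among tested Kcnh genes the largest difference was that of Kcnh1, at 0.40, with an SE of 0.54. Among tested K2P genes it was Kcnk9, an acid-sensitive leak channel, at 0.35. The median was -0.10 for the 10 inward rectifiers, of which 7 had lower mutant means. It was -0.21 for the 7 tested genes of the Kcnma, Kcnn, Kcnt and Kcnu class, of which 5 had lower means. Within the last class Kcnt2, a sodium-activated channel, had the lowest difference of all tested members, at -0.50 (SE 0.31, limma adjusted p = 0.821), and Kcnma1 differed by -0.21 (SE 0.13).

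The medians of the other classes ran from -0.12 in the calcium pore genes (4 of 6 lower) to 0.10 in the sodium pore genes (4 of 6 higher). For the alpha2delta, beta and gamma subunits of calcium channels they were -0.07, -0.02 and 0.09, for 3, 4 and 4 tested genes. Cacnb4 had the largest difference among tested beta subunits, at -0.48 (SE 0.24), and Cacng1, a skeletal muscle gamma subunit, among tested gamma subunits, at 0.39 (SE 0.35). For the 4 sodium channel beta subunits the median was 0.05, with Scn4b at 0.30 (SE 0.20). For the 10 tested potassium auxiliary subunits it was 0.04, and for the 3 Kcnq genes 0.02. These medians stand beside 0.030 for all genes, and none was given a test.

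Channels known from endocrine cells were listed because the labels place Cre in that lineage, but the list is not confined to it. Scn3a, Scn8a, Scn9a and Cacna1a are also on the nerve list. Cacna1c, Cacnb2, Cacna2d1 and Kcnma1 are also on the smooth muscle list. How much of each signal came from endocrine cells was not measured. Of the 19 members on this list 17 were tested, 0 passed, and 10 had higher and 7 lower mutant means (median 0.04). Cacna1a read -1.40, -1.78, -2.17 and -1.72 in controls and -2.17, -2.09, -1.78 and -1.85 in mutants. The lowest control and the lowest mutant were at about the same level, and the difference was -0.20 (SE 0.17, limma adjusted p = 0.821). The second Cacna1a probe differed by -0.26 (SE 0.14, limma adjusted p = 0.828 over all tested probes), and its groups overlapped too. Cacna1d, an L-type channel of endocrine cells, read -3.57, -3.43, -3.97 and -3.73 in controls and -3.95, -3.85, -3.51 and -3.56 in mutants. Its groups were interleaved, with a difference of -0.04 (SE 0.15, limma adjusted p = 0.947), and the second Cacna1d probe differed by 0.07. Kcnh2 differed by 0.08, Kcnk16 by 0.04, Kcnk3 by 0.07 and Cacna1h by 0.04.

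Scn8a, the Nav1.6 sodium channel found in nerve, is on both the endocrine and the nerve list. It read 2.74, 2.89, 2.84 and 2.66 in controls and 3.40, 3.04, 2.86 and 2.92 in mutants. Mutant replicate 3 lay below control replicate 2, so the groups overlapped, and the difference was 0.28 (SE 0.13, limma adjusted p = 0.821). Without mutant replicate 1 it was 0.16. The sodium channel beta subunit Scn3b differed by -0.16, with an SE of 0.20.

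Of the 14 genes known from nerve, 6 were above background on no array and 8 were tested, with 5 higher and 3 lower in mutants (median 0.09) and 0 past the adjusted threshold. This list includes Scn2a1, the older symbol of a neuronal sodium channel gene, which the naming rule of the set does not take in. Its difference was 0.37 (limma adjusted p = 0.821). Kcnd3 and Kcnip1 differed by 0.17 and 0.15. Enteric neuron markers, 7 of 7 above background on all arrays, had summed levels of 4.66 to 4.92 in controls and 4.64 to 4.89 in mutants. Snap25, with a control mean of 4.27, set most of this sum.

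Of 9 epithelial transport channels 8 were tested, 4 higher and 4 lower in mutants (median 0.002) and 0 past the threshold. Kcnq1 forms with its auxiliary subunit Kcne3 the basolateral potassium channel that supports chloride secretion. Kcnq1 read 2.05, 1.99, 2.21 and 1.90 in controls and 2.42, 1.84, 1.94 and 2.02 in mutants. Its groups were interleaved, with a difference of 0.02 (SE 0.14, limma adjusted p = 0.979). Kcne3 read 2.60, 2.58, 2.88 and 2.79 in controls and 2.70, 2.36, 2.17 and 2.75 in mutants. Mutant replicates 2 and 3 lay below all controls and the other two within their range, with a difference of -0.22 (SE 0.15, limma adjusted p = 0.821). The other tested Kcne3 probe differed by -0.23.

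Kcnj15 had the largest positive difference of the 90 tested members, 0.61, with an SE of 0.57, and it came from 1 array. It read -3.70, -3.74, -3.63 and -4.20 in controls and -3.54, -1.23, -3.96 and -4.07 in mutants. Only mutant replicate 2 stood high. Without that array the difference was -0.04. On the same list Kcnn4, Kcnk5, Kcnk6 and Kcnj16 differed by 0.12, 0.11, -0.01 and -0.01.

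Of 8 smooth muscle channels 6 were tested, 4 higher and 2 lower in mutants (median 0.13) and 0 past the threshold. Kcnmb1, the smooth muscle beta subunit of the BK channel, differed by 0.14 (SE 0.30), Kcnj8 by 0.14 and Cacnb2 by 0.15. Smooth muscle markers had 6 of 6 higher mutant means (median 0.21) with summed levels of 7.91 to 8.51 in controls and 8.39 to 8.84 in mutants, and 0 of the 6 passed the adjusted threshold. Their part in the channel values was not tested.

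Channel partners and other channels outside the set were also measured. Of 54 such genes 47 were tested, 23 higher and 24 lower in mutants (median -0.005), and 0 passed the adjusted threshold. At an unadjusted limma p under 0.05 there were 2 of the 47, Clcn2 higher (0.29) and Unc80 lower (-0.70), beside 5.33% of all genes. The groups did not overlap for 1 of the 47, Amigo1, beside 4.67% of all genes. Amigo1, an auxiliary protein of delayed rectifier channels, read -2.52, -2.62, -2.60 and -2.62 in controls and -1.87, -2.46, -2.26 and -2.51 in mutants. Its difference was 0.31 (limma adjusted p = 0.821), with mutant replicate 1 highest.

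Some channel genes stood apart on a single array. On mutant replicate 1, Cacna2d1, an alpha2delta subunit that brings calcium channels to the membrane, read -1.54, against 0.36, 0.46 and 0.22 in the other mutants and 0.20, 0.36, -0.23 and 0.31 in controls. Its second probe read -2.08 there and -0.58, -0.42 and -0.62 in the other mutants. Scn3a, a fetal neuronal and endocrine sodium channel, read -2.55 on mutant replicate 1 and -1.42, -1.38 and -1.37 in the other mutants, with -2.75 for the second probe against -1.40, -1.54 and -1.53. Kcnj13, an epithelial inward rectifier, read -4.24 against -2.19, -2.08 and -2.31, with -5.22 for the second probe against -3.24, -3.33 and -3.79. In each of the 3 genes both probes were thus low on the same array. Without mutant replicate 1 the differences were 0.19 for Cacna2d1, 0.08 for Scn3a and 0.01 for Kcnj13.

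**Figure D4:**
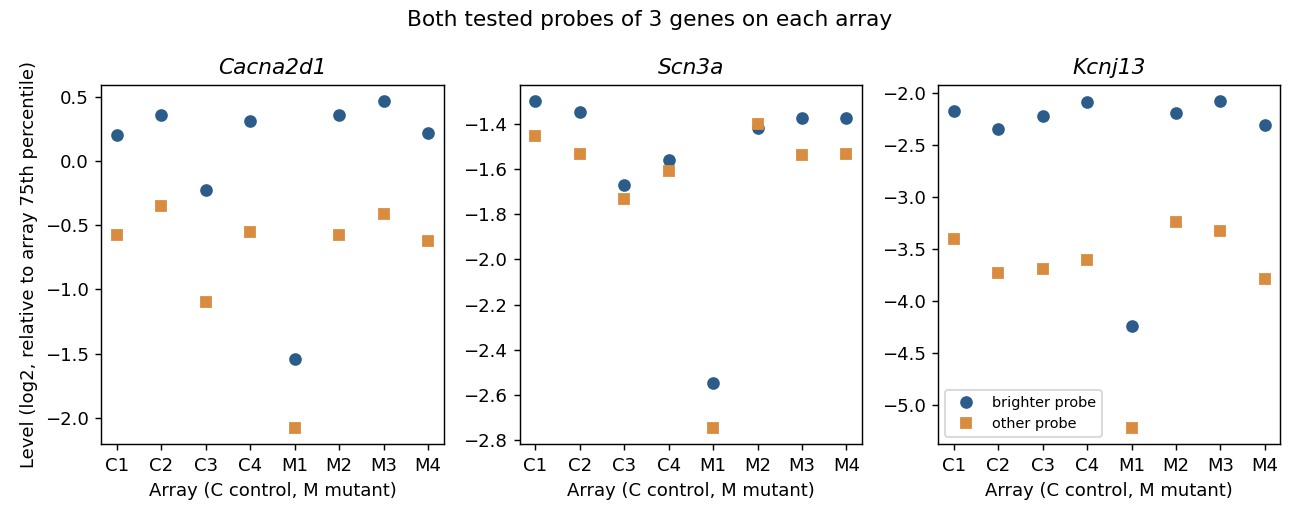
Levels of both tested probes of Cacna2d1, Scn3a and Kcnj13 on each array (C control, M mutant, replicates 1 to 4), in log2 units relative to the array's 75th percentile. On mutant replicate 1 both probes of each gene were at their lowest, -1.54 and -2.08, -2.55 and -2.75, and -4.24 and -5.22.

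Control replicate 3 stood low for more channel genes than any other array. There, 24 of the 90 tested members (26.7%) lay more than 0.5 log2 units below the mean of the other 3 controls, beside 6.23% of all genes. On mutant replicate 1 the count was 12 (13.3%, beside 15.3% of all genes), and on the other 6 arrays it was 2 to 11. The genes low on control replicate 3, chosen after their values were seen, included the A-type channel Kcnd3 and the genes of its auxiliary subunits Kcnip1 and Kcnip2. Kcnip2 read -4.93 there against -3.47, -3.96 and -4.03 in the other controls. Kcnip1 read -5.54 against -4.19, -4.37 and -4.77, and Kcnd3 read -0.56 against 0.13, 0.44 and 0.20.

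Cacnb2, a beta subunit of L-type channels, read -5.43 on control replicate 3 against -4.49, -4.51 and -4.59. Kcns3, a silent subunit, was opposite, at 1.09 against -0.07, 0.49 and -0.20. Summed smooth muscle markers were 7.91 on this array and 8.39 to 8.84 on the other 7, and summed markers of interstitial cells of Cajal were 2.72 and 2.94 to 3.24. The part of these markers in the channel values was not tested. Without control replicate 3 the median difference of the channel genes was -0.02, against 0.03 over all genes, and the groups did not overlap for 6 channel genes (6.67%), beside 8.29% of all genes.

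**Figure D5:**
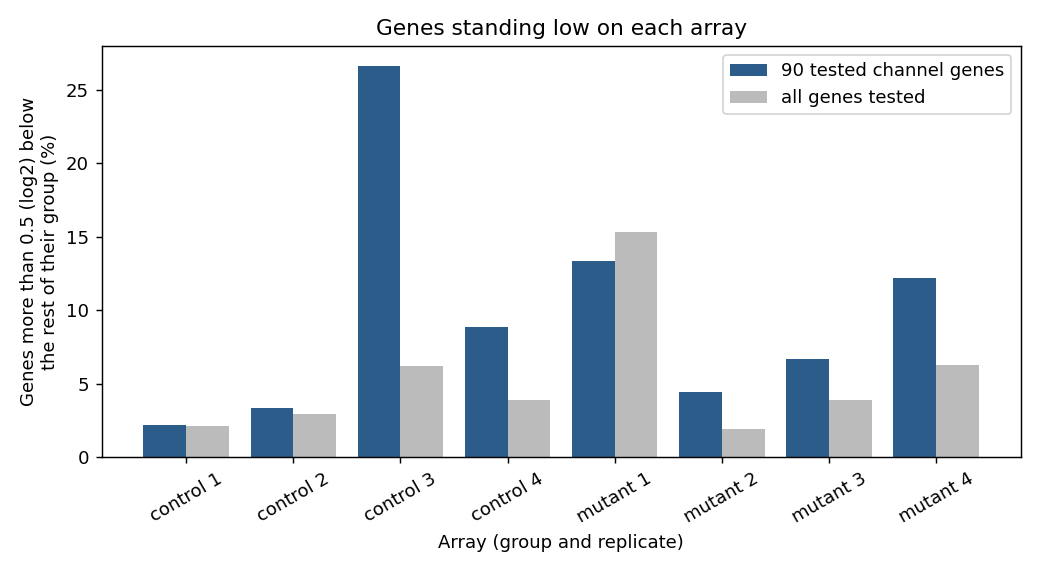
Percentage of genes lying more than 0.5 log2 units below the mean of the other 3 arrays of their group, for the 90 tested channel genes and for all genes tested, on each of the 8 arrays. Control replicate 3 has 26.7% of channel genes and 6.23% of all genes, and mutant replicate 1 has 13.3% and 15.3%.

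Among the 40 members that were not tested, 24 were above background on no array and 16 on 1 to 3. In all, 11 members were above background in 1 group only, 5 in controls and 6 in mutants, each of them on a single array. The clearest were Kcne1, a subunit that slows Kcnq1 channels, at -2.22 on mutant replicate 2 and -7.20 to -7.80 on the other 7 arrays, and Kcna10, at -2.33 on mutant replicate 4 and -7.12 to -8.26 elsewhere. Kcna1 was above background on mutant replicate 4 (-4.17) and Kcnj9 on control replicate 1 (-4.68). The other 7 were Kcnv1, Kcnab2, Kcnmb3 and Cacna1c in controls and Kcnj3, Kcnk12 and Cacng8 in mutants. Since no such gene was above background on 2 arrays of a group, none of them separates the groups.

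RFX transcription factors bind the X-box, a palindromic DNA motif, so the promoters of the set were searched for it in RefSeq sequences of assembly GRCm38.p6, from 250 bases before to 50 after each transcription start. All 130 symbols matched RefSeq and 96 genes had promoter sequence, 131 promoters in all. The full motif, GTTNCC and GGNAAC with any 2 bases between them, on either strand, was in 1 member promoter (0.76%) and in 148 of 32851 promoters overall (0.45%). The shorter half-site GTTGCC, which can lie inside a full motif, was in 18 member promoters of 16 genes (13.74%) and in 12.51% of all promoters. The one full match is shown because it is the single such promoter of the set, with the motif in capitals and up to 30 bases on each side, read along the minus strand at chr2:127522085-127522158.
Kcnip3 promoter: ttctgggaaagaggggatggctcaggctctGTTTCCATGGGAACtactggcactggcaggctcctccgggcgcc

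Kcnip3 encodes a calcium-binding auxiliary subunit of Kcnd channels, and it is named after its match was seen. It read 0.03, 0.45, -0.19 and 0.22 in controls and 0.54, 0.12, 0.23 and 0.18 in mutants. The groups were interleaved, with a difference of 0.14 (SE 0.16, limma adjusted p = 0.832). The matched letters are a description of this sequence and not a measured site.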

How the data were processed

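RNA of 8 whole small intestines was measured on 8 one-colour arrays of 1 slide, read in 1 scan. TRI-reagent was used for extraction and 100 ng of the RNA went into linear amplification with Cy3, per the labels' protocols. Per the file headers, the authors extracted spots with Agilent Feature Extraction 10.10.1.1 (a version also in the submitters' processing notes) and deposited linear intensity values, background-corrected and detrended within each array but not normalised between arrays. The deposited value table, also linear intensity, had the same quartiles in all 8 columns and was used as an alternative. Probe coordinates are those of the files, on mm9. The descriptions of mutant replicates 2 to 4 name other Rfx genes. Titles and source names were followed.

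From the processed intensity, log2 values were taken and scaled by subtracting the array's own 75th percentile (59305 non-control spots), outlier spots (117 to 157 per array) were dropped and spots of a probe averaged. The 130 members had 185 probes. The test was limma's moderated one (version 3.58.1, R 4.3.3; lmFit and eBayes without covariates, two-sided), and p-values were adjusted by Benjamini-Hochberg over 25354 genes. The code was tested on simulated data. The number of arrays limits the precision, and nothing beyond the embryo numbers in the titles says how replicates were separated, so p-values measure the spread between these samples.

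The members, the lists and the tests were chosen with earlier results of these data known. The text names Rfx6, called or non-overlapping members, the tested member with the largest difference in each of 14 subunit classes, members of the tissue lists (endocrine, nerve, epithelial, smooth muscle), members above background in 1 group only, and partner genes that were called or did not overlap. Some members are not reported here by name. Genes named outside this rule were chosen after their values were seen. Marker lists for glia, enterocytes, endothelium and blood were measured too, and their summed levels overlapped between the groups (control and mutant ranges 0.53 to 0.92 and 0.48 to 0.73, 10.1 to 10.2 and 9.97 to 10.3, 2.89 to 2.94 and 2.92 to 3.48, and 7.32 to 8.43 and 7.34 to 8.07). Exon annotation and protein sequences were not used here. Alternatives covered background correction, scaling, filter, probe choice, array weights, blocks and left-out arrays.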

Additional observations from a re-analysis of the deposited data

Results flagged for a closer look

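In 76 groups of 4 arrays (tested members chosen by the naming rule, less those not reported by name, in controls and in mutants), 1 array stood apart from the other 3 in 6, where chance gives about 1 in 20, or 3.8. In 4 of the 6 it was mutant replicate 1, low each time. That array stood at -1.54 for Cacna2d1 (other mutants 0.22 to 0.46), at -2.55 for Scn3a (-1.42 to -1.37), at -4.24 for Kcnj13 (-2.31 to -2.08) and at -6.31 for Kcnh6 (-4.71 to -4.45). Control replicate 3 stood low for Cacnb2, at -5.43 (other controls -4.59 to -4.49). Mutant replicate 4 stood low for Cacna2d2, at -1.43 (-0.95 to -0.94).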

How the results depend on the processing

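The count of channel genes past an adjusted limma p of 0.05 was 0 in the main fit and in all 19 other settings, while all genes gave 7 (replicate block) to 42 (array weights). The median difference stayed between -0.04 and 0.06. Channel genes at an unadjusted p under 0.05, 5 in the main fit, numbered 3 with normexp, the deposited values, the mean of tested probes or the slide row as a block (5.04% to 6.44% of all genes). They numbered 2 with median scaling or no filter (4.05% and 3.92% of all genes). With quantile normalization there were 6 (6.67%), beside 6.27% of all genes. A filter of all 8 arrays above background gave 4 (5.19%), beside 5.62% of all genes. Array weights gave 13 (14.4%), beside 10.3% of all genes. The labels share replicate numbers, and deviations of same-numbered arrays had correlations of -0.09 to 0.09, within the -0.20 to 0.24 of other pairs. No pairing by number was thus seen, but 4 arrays per group cannot exclude one. The replicate block gave 3 (4.24% of all genes). Leaving out each array in turn gave 1 to 10 (3.94% to 7.32%). Non-overlapping channel genes, 1 in the main fit, numbered 3 with normexp or quantile normalization (4.45% and 5.30% of all genes) and 2 with median scaling, the deposited values or the mean of tested probes (3.14%, 5.13% and 4.55%). Leaving out each array in turn gave 2 to 9 (6.80% to 10.5% of all genes). Control replicate 3 and mutant replicate 1 were also left out together, a choice made after seeing the data. In that fit 12 channel genes (13.3%) had an unadjusted p under 0.05 in either direction, beside 6.91% of all genes. There, 13 channel genes (14.4%) did not overlap in either direction, beside 13.2% of all genes. With each tested probe on its own, also added after seeing the data, 0 of 113 channel probes passed and 5 had an unadjusted p under 0.05 (4.42%, beside 5.05% of all probes). Of 21 genes with more than 1 tested probe, 15 had the same sign for all. Probes near background are limited by surrogate values, so their differences are least certain. The cause of the moved counts was not tested.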
